A study of Mus musculus with 30 samples.

Results

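Open chromatin of spermatogonia was compared between day 6 and day 8 after birth by setting the peak list of primitive type A spermatogonia (PriSG-A) beside the peak list of type A spermatogonia (SG-A). A peak is a stretch of DNA that the authors' peak caller listed as open. All listed peaks on chromosomes 1 to 19 were taken, 54413 from PriSG-A and 85773 from SG-A, which gave 140186 of the 185395 peaks in the 4 lists of the series. A PriSG-A peak and an SG-A peak were called shared where they overlapped by at least 1 bp. A shared pair is called 1 to 1 where neither peak touched another peak of the other list.

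The study profiled mouse germ cells at 4 stages, and 10 of its 30 samples are ATAC-seq libraries. PriSG-A came from C57BL/6 mice at day 6 and SG-A from C57BL/6 mice at day 8, with 3 libraries each and no treatment or genetic change in the labels. Pachytene spermatocytes (pacSC) and round spermatids (rST), with 2 libraries each, came from adults of the same strain and were used here only to see which regions were listed later. Each stage has 1 peak list for all its libraries, so replicates cannot be separated, no replicate error can be given, and the stages were not compared by a p-value. The testes were digested to tubules, and the labels do not give the further purification of the spermatogonia or the pooling of animals. The lists are bulk measurements, in which fewer cells with an open site and less opening per cell cannot be told apart.

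Type A spermatogonia are the mitotic germ cells of the seminiferous tubule. Around the first week after birth they descend from gonocytes, and they include both cells that renew the stem cell pool and cells that go on to differentiate towards meiosis. In ATAC-seq the transposase Tn5 cuts DNA where it is accessible, and the fragments are sequenced. Promoters, enhancers and other nucleosome-poor sites then appear as pile-ups of reads. The highest point of a peak is its summit. The stage labels were not checked against marker genes, because a gene annotation on the assembly of the files was not used here, and for the same reason no gene is named.

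In the full lists, most PriSG-A peaks were found again at day 8, while most SG-A peaks had no day 6 partner. Of the PriSG-A peaks, 39026 were shared (71.7%, 95% Wilson interval 71.3 to 72.1) and 15387 were not listed again (28.3%). Of the SG-A peaks, 32431 were shared (37.8%, 37.5 to 38.1) and 53342 were newly listed (62.2%). The SG-A list is the longer one, and read depth is unknown. With the SG-A list cut to the length of the PriSG-A list by keeping its strongest peaks, 47.8% were newly listed. In that setting 65.7% of PriSG-A peaks were listed again. The intervals cover counting error only and treat neighbouring peaks as independent. The share of PriSG-A peaks listed again was 31.7% when the overlap had to reach 50% of both peaks, so many shared pairs differed in extent or position. Pairs at the edge of the rule were rare. An overlap of at most 10 bp was found in 195 of 40787 overlapping pairs (0.478%), and 131 newly listed peaks (0.246%) lay within 10 bp of a PriSG-A peak without touching it.

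Shared peaks fell into 3 structural kinds. The 1 to 1 kind held 22752 regions, which were 41.8% of the PriSG-A list and 26.5% of the SG-A list. The joined kind held 6670 SG-A peaks (7.78% of the SG-A list) that each covered at least 2 PriSG-A peaks, and 14651 PriSG-A peaks (26.9% of that list) were parts of them. The split kind held 1623 PriSG-A peaks (2.98%) that each met at least 2 SG-A peaks, and 3009 SG-A peaks (3.51%) were their pieces. A PriSG-A peak that was both split and part of a join was counted as split, and an SG-A peak that was both joined and a piece was counted as joined. The kinds differed in strength. Strength is given here by the authors' −log10 q, the peak's significance after correction within its list, where a higher number is a stronger peak. Its median in SG-A was 6.96 for joined peaks, 4.30 for 1 to 1 peaks, 2.80 for split pieces and 2.39 for newly listed peaks. In PriSG-A it was 3.28 for split peaks, 2.87 for 1 to 1 peaks, 2.69 for parts of a joined peak and 2.10 for peaks not listed again.

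The peaks that were in 1 list alone were the weak and narrow end of that list. The PriSG-A peaks not listed again had a median width of 100 bp, 12.8% of them were exactly 100 bp wide, and none of the 15387 reached a −log10 q of 5, against 13.1% of shared PriSG-A peaks. They took only 687 distinct −log10 q values, against 2612 for the shared PriSG-A peaks. Of the newly listed SG-A peaks, 8.62% were exactly 100 bp wide and 513 (0.962%) reached a −log10 q of 5.

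The 1 to 1 regions carried more signal per base at day 8. The deposited signal value is an area over the peak, so it was divided by the peak's width in bp to give a signal value per bp. Its median over the 22752 regions was 0.612 in PriSG-A and 1.15 in SG-A. The median ratio of SG-A to PriSG-A was 1.97 (95% interval 1.95 to 1.99), which is 0.98 on the log2 scale, and the 5th and 95th percentiles of the ratio were 0.528 and 5.29. Of these regions, 11178 (49.1% of all 1 to 1 regions) were at least 2 times higher in SG-A and 993 (4.36%) at least 2 times lower, and 4029 (17.7%) had a ratio under 1. In every peak of all 4 lists the signal value per bp lay below the peak's −log10 q minus 1.301, which is −log10 of a q of 0.05. The signal value is therefore bounded by the significance of the peak, which grows with read depth. The depth is unknown, so a general difference between the lists cannot be told apart from a difference in depth. When each ratio was divided by the median ratio, a scaling chosen after the data were seen, 11.2% of regions were at least 2 times higher and 17.3% at least 2 times lower, so the order of the shares turned.

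**Figure D1:**
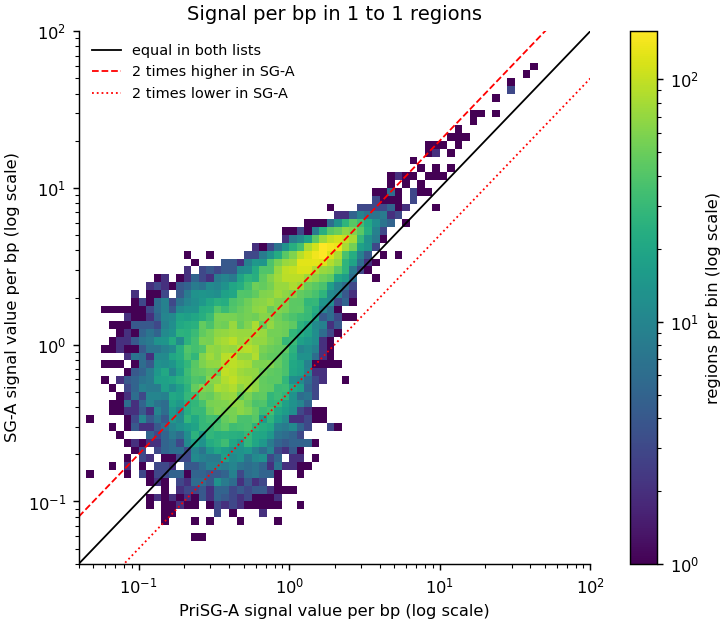
Signal value per bp in PriSG-A (x axis, log scale) and SG-A (y axis, log scale) for the 22752 regions in which 1 PriSG-A peak met 1 SG-A peak; colour gives the number of regions per bin on a log scale. The cloud lies above the solid line of equal values, with a median ratio of 1.97, and it narrows towards strong regions.

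The strongest regions had the narrowest spread of ratios. In the 3501 regions with a −log10 q of 5 or more in each list, the median signal value per bp was 1.93 in PriSG-A and 4.05 in SG-A. The ratio had a median of 2.03 (2.01 to 2.05) with 5th and 95th percentiles of 1.19 and 2.98, and 52.0% of these regions were at least 2 times higher. A ratio under 1 was found in 68 of them (1.94%) and a ratio of 0.5 or less in none. Sorted into 5 classes of equal size by the sum of both −log10 q values, the 1 to 1 regions had median ratios of 1.17, 1.61, 2.10, 2.50 and 2.22 from the weakest to the strongest class. The ratio was thus highest in the fourth class and not in the strongest. The share at least 2 times lower was 11.6% in the weakest class, 0.132% in the fourth and 0% in the strongest. Because the sorting used the values of both lists, these medians describe the spread within the list and test nothing. The filter on both lists also limits the ratios that the strong set can hold, so its narrow spread and its lack of low ratios are descriptions too.

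The highest ratios among the 3501 strong regions lay between 4.14 and 4.73 in the 5 regions named by rule, given here by their PriSG-A positions. A region on chromosome 11 at 51419348 to 51420803 had a signal value per bp of 0.779 in PriSG-A and 3.68 in SG-A, a ratio of 4.73. A pair on chromosome 7, at 121419131 to 121420223 and at 52124357 to 52125771, had ratios of 4.33 and 4.24. The other 2 were 96048952 to 96051232 on chromosome 3 (ratio 4.16) and 151551647 to 151552913 on chromosome 4 (4.14). All 5 had a −log10 q between 5.07 and 5.41 in PriSG-A, just past the threshold of 5, and between 8.14 and 11.6 in SG-A. All 5 overlapped a pacSC peak and none an rST peak. A pacSC peak is common among strong regions, with 90.1% of 1 to 1 SG-A peaks in pacSC when both lists were limited to a −log10 q of 5 or more. An rST peak was found for 10.5% of 1 to 1 SG-A peaks of any strength, and its share in the strong set is not given here.

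The lowest ratios in the same strong set were above 0.5. A region on chromosome 5 at 33071417 to 33071809 went from 2.69 in PriSG-A to 1.495 in SG-A, a ratio of 0.556, while its width went from 393 to 677 bp. The next was on chromosome 7 at 10033741 to 10034690, with 2.49 in PriSG-A and 1.51 in SG-A (ratio 0.606), and its −log10 q was 7.28 and then 6.14. The remaining 3, on chromosome 5 at 15031189, chromosome 4 at 78252130 and chromosome 17 at 3075027, had ratios from 0.654 to 0.684. The regions on chromosome 5 were also listed in pacSC and rST and the other 3 in neither. In all 5 the summit stayed within 32 bp. A lower value per bp did not always go with a weaker peak. At 15031189 on chromosome 5 the −log10 q went from 5.19 to 5.63 and the width from 664 to 1166 bp. At 78252130 on chromosome 4 the −log10 q went from 5.28 to 5.86, and in the rest it fell.

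Lower ratios were found where only the PriSG-A peak was strong, a set chosen after the values were seen. The filter asks for a weaker SG-A peak, and the signal value is bounded by the significance of the peak. Low ratios thus follow from the choice and test nothing. Of regions with a −log10 q of 5 or more in PriSG-A and less in SG-A, the lowest was on chromosome 10 at 102085166 to 102085907, with a signal value per bp of 2.14 in PriSG-A and 0.304 in SG-A (ratio 0.142) and a −log10 q of 5.29 and then 2.71. It narrowed from 742 to 375 bp around a summit that shifted by 15 bp. The next was on chromosome 14 (111153792 to 111154510) with a ratio of 0.364. It was followed by chromosome 17 (39147529 to 39148658, ratio 0.409) and chromosome 11 (16491422 to 16492089, ratio 0.4996). Of these 4 regions only the one on chromosome 11 was listed in pacSC, against 35.7% of SG-A peaks in all 1 to 1 regions. Over all 1 to 1 regions the median ratio was 1.97.

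Peaks were also wider in SG-A. The median width of the 1 to 1 regions was 346 bp in PriSG-A and 555 bp in SG-A, and the median ratio of widths was 1.34 (1.33 to 1.35). At least 2 times wider in SG-A were 5788 regions (25.4% of all 1 to 1 regions), and at least 2 times narrower were 1534 (6.74%). Both edges lay further out in SG-A in 53.7% of regions, both further in in 11.01%, and 1 edge further out in 34.3%. The difference was even on both sides, with a median outward distance of 54 bp at the low-coordinate edge and 54 bp at the high-coordinate edge. The whole PriSG-A peak lay within its SG-A partner in 55.5% of regions.

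Large differences of width were rare where peaks were strong. In the strong set the median width went from 1208 to 1529 bp with a ratio of 1.22 (1.21 to 1.23), and only 2.29% of regions were at least 2 times wider. One region of the 3501 was at least 2 times narrower. The edges there lay further out by medians of 126 and 118 bp. In the 5 classes of summed −log10 q the median width ratio was 1.02, 1.36, 1.66, 1.496 and 1.28 from the weakest to the strongest, so it was nearest to 1 in the weakest class. By the width of the PriSG-A peak, the median width ratio was 2.39 for peaks under 100 bp, 1.69 from 100 to under 200 bp and 1.17 from 200 to under 400 bp. It was 1.38, 1.26 and 1.10 in the next classes, which began at 400, 800 and 1600 bp. A peak that is narrow in 1 list can hardly become narrower in the other, and the classes used the width that enters the ratio, so this order is a description.

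The largest widenings in the strong set were uneven, with more of the added width on the low-coordinate side. On chromosome 1 the peak at 182780553 to 182781518 in PriSG-A was 966 bp wide and its SG-A partner, at 182778211 to 182781850, was 3640 bp wide, a ratio of 3.77, with summits 12 bp apart. On chromosome 4 a peak of 1159 bp at 55545004 became 4176 bp with the summit at the same base, and another of 943 bp at 154937381 became 3096 bp. All 3 were listed in pacSC and rST as well. Of all 1 to 1 SG-A peaks, 35.7% were in pacSC and 10.5% in rST. The single region that narrowed by over 2 times lay on chromosome 4 at 3103814 to 3104617, where 804 bp became 376 bp while the signal value per bp went from 1.42 to 3.31.

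Summit distances have to be read beside the peak widths, because narrow peaks that overlap cannot have summits far apart. In the weakest class of summed −log10 q the median distance was 46 bp, at median widths of 105 bp in PriSG-A and 118 bp in SG-A. In the strong set it was 30 bp, at median widths of 1208 and 1529 bp. The distance between the PriSG-A and the SG-A summit of a 1 to 1 region had a median of 50 bp (49 to 51) and quartiles of 15 and 146 bp. It was at most 10 bp in 19.5% of regions, over 100 bp in 7432 (32.7% of all 1 to 1 regions), over 500 bp in 303 (1.33%) and over 1000 bp in 31. The signed shift had a median of 0 bp, so there was no general direction along the chromosome. The SG-A summit fell inside the PriSG-A peak in 85.2% of regions and the PriSG-A summit inside the SG-A peak in 91.6%. In the strong set the median shift was 30 bp, 31.3% of summits lay within 10 bp, and each summit lay inside the partner peak in all 3501 regions. Still, 29.3% of the strong regions had summits over 100 bp apart, close to the 32.7% of all regions, and the upper quartile was 137 bp. With all overlapping pairs in place of 1 to 1 regions the median shift was 92 bp, and with a −log10 q of 5 or more applied to the lists before pairing it was 31 bp.

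**Figure D2:**
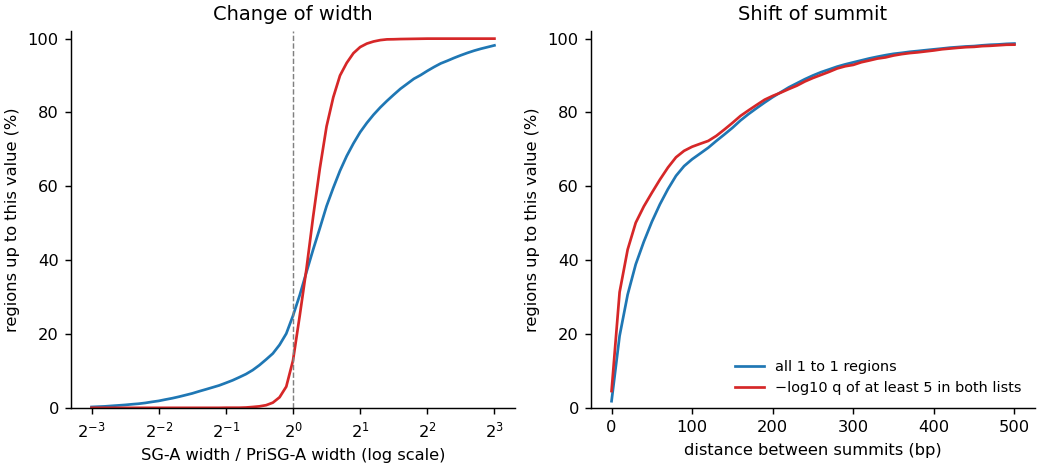
Cumulative share of 1 to 1 regions by the ratio of widths (left, log scale) and by the distance between summits in bp (right), for all 22752 regions and for the 3501 with a −log10 q of 5 or more in each list. Strong regions changed width less (median ratio 1.22 against 1.34), while the shares with summits over 100 bp apart were close (29.3% and 32.7%).

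The longest summit shifts in the strong set were in very wide peaks with nearly fixed edges. The first was on chromosome 11 at 3052095 to 3080432, 28338 bp wide in PriSG-A and 28362 bp in SG-A, where the summits lay 9308 bp apart. The others were on chromosome 8 at 56203812 to 56209114 (2520 bp), chromosome 1 at 87493974 to 87498065 (2087 bp) and 24618315 to 24623073 (1865 bp), and chromosome 2 at 22442749 to 22446109 (1783 bp). In 2 of these 5, on chromosomes 8 and 2, both edges were the same base in both lists. The ratio of signal per bp was 1.12 to 1.61 in these 5 regions, below the median of the strong set, and all were listed in pacSC and rST. Of all 1 to 1 SG-A peaks, 35.7% were in pacSC and 10.5% in rST. Repeated and multi-copy sequence was not filtered out, and its part in these wide regions was not tested.

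Joining was far more common than splitting. Of the shared SG-A peaks, 20.6% covered at least 2 PriSG-A peaks, and of the shared PriSG-A peaks, 4.16% met at least 2 SG-A peaks. Among the 6670 joined peaks, 5381 (80.7%) took in 2 PriSG-A peaks, 994 took in 3, and 295 (4.42%) took in 4 to 8. The gaps that were bridged were small, with a median of 142 bp for the widest gap in a joined peak. It was at most 200 bp in 74.5% of them and at most 500 bp in 95.4%. Within 1 list no gap was below 101 bp, so most bridged gaps were only slightly above the smallest gap that the lists hold. With a −log10 q of 5 or more in each list the joined share was 0.713% and the split share 0.394%. With the SG-A list cut to the PriSG-A length by keeping its peaks of highest −log10 q, the shares were 23.3% and 2.58%.

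Joined peaks were the strongest kind of the SG-A list. Their median width was 1302.5 bp, against a summed width of 774 bp for their PriSG-A pieces, and their median −log10 q was 6.96 against 3.63 for the strongest piece. The signal value per bp of the joined peak was 2.41 times (2.38 to 2.45) that over its pieces, and 66.5% of joins were at least 2 times higher. That share was 49.1% over all 1 to 1 regions, but 67.6% and 64.6% in the fourth and the strongest class of summed −log10 q. The SG-A summit lay in the strongest PriSG-A piece in 77.5% of joins and in some piece in 91.4%. In the remaining joins it lay outside all pieces, in a former gap or in a flank. Split peaks differed less between the lists. Their pieces had a signal value per bp 1.51 times that of the whole PriSG-A peak (1.45 to 1.56), 24.8% of splits had a ratio below 1, and 1503 of 1623 splits (92.6%) gave 2 pieces. The former PriSG-A summit lay in the strongest SG-A piece in 64.6% of splits and in some piece in 85.0%.

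The joins and splits with most pieces show both forms. On chromosome 6 an SG-A peak of 11702 bp at 47607756 to 47619457 covered 8 PriSG-A peaks with gaps of 114 to 1681 bp, at a ratio of 2.30. Another 8 were covered by a peak on chromosome 14 at 84842142 to 84848416 (ratio 2.07), and both of these joined peaks were listed in pacSC and rST. The third named join of 8, on chromosome 11 at 102177824 to 102181822, had a ratio of 6.63 and was listed in neither. Of all joined SG-A peaks, 52.5% were in pacSC and 12.6% in rST. In the other direction a PriSG-A peak of 1930 bp on chromosome 12, at 120804499 to 120806428, met 5 SG-A peaks with gaps of 126 to 686 bp at a ratio of 0.798. A PriSG-A peak on chromosome 1 (90127643 to 90134972) and one on chromosome 16 (3238046 to 3241861) met 4 SG-A peaks each, with ratios of 1.42 and 1.10.

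Newly listed SG-A peaks mostly lay away from earlier peaks. The gap from a newly listed peak to the nearest PriSG-A edge had a median of 7021.5 bp (6867 to 7184). It was at most 100 bp for 2.81% of them, at most 1000 bp for 27.0% (26.7 to 27.4) and at most 10000 bp for 56.8%, and 1680 (3.15%) lay over 100 kb away. The same measure for shared SG-A peaks, to the nearest PriSG-A peak outside them, had a median of 7991 bp with 28.5% (28.0 to 29.0) within 1000 bp. Newly listed peaks were therefore about as near to a PriSG-A peak as shared SG-A peaks were to their next one. Within the PriSG-A list, neighbours were closer. The nearest other PriSG-A peak was at a median of 610 bp, and 52.7% of PriSG-A peaks had one within 1000 bp. The 513 newly listed peaks with a −log10 q of 5 or more lay at a median of 8041 bp from a PriSG-A peak, and 14.4% (11.6 to 17.7) were within 1000 bp, fewer than among all newly listed peaks.

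PriSG-A peaks that were not listed again showed 2 tails. Their gap to the nearest SG-A edge had a median of 9226 bp, but 7.59% lay within 100 bp and 33.2% (32.4 to 33.9) within 1000 bp, against 2.81% and 27.0% in the other direction. The SG-A list is the longer one. With lists of equal length, which left out the SG-A peaks of lowest −log10 q, the order within 1000 bp turned. It was then 24.6% for peaks not listed again and 26.7% for newly listed peaks. At the far end, 1359 (8.83%) had no SG-A peak within 100 kb, although the SG-A list is the longer one. For 2267 PriSG-A peaks not listed again (14.7%), the nearest SG-A peak was a newly listed one within 1000 bp. For 2836 it was a shared one within 1000 bp. Newly listed peaks made up 62.2% of all SG-A peaks, so a newly listed neighbour was not especially frequent, and replacement was not tested. The shares within 1000 bp depend on the rule for sharing. With a −log10 q of 5 or more in each list they were 1.24% of 10546 SG-A peaks, most of which overlapped a weaker PriSG-A peak of the full list, and 4.88% of only 41 PriSG-A peaks. They were 43.2% and 72.3% with the reciprocal overlap of 50%, under which partly overlapping peaks count as unshared with a gap of 0.

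**Figure D3:**
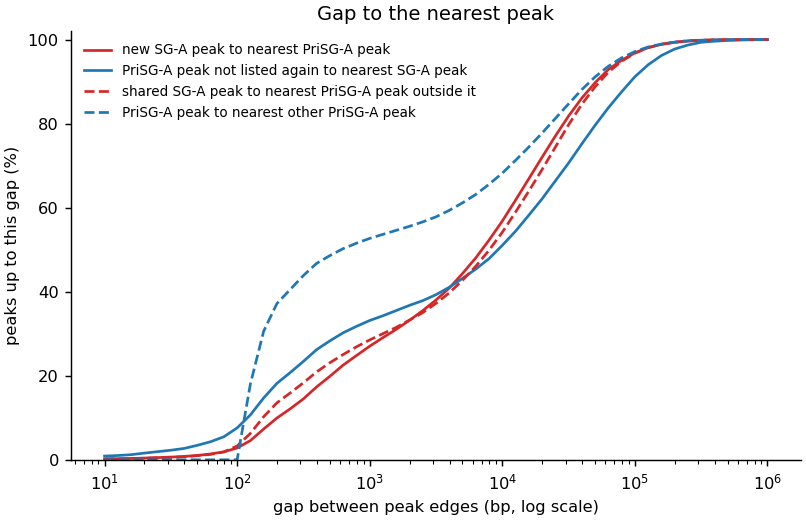
Cumulative share of peaks by the gap in bp (log scale) to the nearest peak, for newly listed SG-A peaks to PriSG-A, PriSG-A peaks not listed again to SG-A, shared SG-A peaks to the nearest PriSG-A peak outside them, and PriSG-A peaks to the nearest other PriSG-A peak. The red curves nearly coincide, with 27.0% and 28.5% within 1000 bp, while the solid blue curve is above them at short gaps (33.2%) and below them at long gaps; with lists of equal length the order within 1000 bp turned (24.6% for peaks not listed again, 26.7% for newly listed peaks).

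The neighbours of unshared peaks were more often shared than peaks in general. The PriSG-A peak nearest to a newly listed peak was itself shared in 80.6% of cases (82.3% for those within 1000 bp), against 71.7% of all PriSG-A peaks. The SG-A peak nearest to a PriSG-A peak not listed again was shared in 48.3% of cases (55.6% within 1000 bp), against 37.8% of all SG-A peaks. All peaks are an unlike base, since a peak far from the other list is seldom a nearest neighbour. Of the PriSG-A peaks not listed again, 8.83% had no SG-A peak within 100 kb. Of the shared PriSG-A peaks, 9822 (25.2%) were the nearest peak of a newly listed one within 1000 bp. The 6899 flanked 1 to 1 regions had a median ratio of signal per bp of 2.21 (2.17 to 2.24), against 1.88 (1.86 to 1.90) for the 15853 others. In PriSG-A they had a median −log10 q of 2.73 against 2.88 and a width of 330 against 351 bp.

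Over 100 kb from any PriSG-A peak, the newly listed peak that led by signal value spanned 76195586 to 76196809 on chromosome 10, with a signal value of 2017 over 1224 bp, a −log10 q of 7.11 and a gap of 109194 bp. One on chromosome 4 at 130808713 to 130809379 had a −log10 q of 6.10 and a gap of 264341 bp. Neither was listed in pacSC. Within 1000 bp of an earlier peak, the newly listed peaks of highest signal value spanned 113824515 to 113825732 on chromosome 13 (gap 493 bp), and 143584299 to 143585933 and 143581228 to 143582524 on chromosome 5 (gaps 199 and 542 bp). The pair on chromosome 5 lay on either side of weak PriSG-A peaks. The PriSG-A peaks not listed again that lay over 100 kb from SG-A were weaker. Those of highest signal value were on chromosome 17 at 18547207 to 18548216 (−log10 q 4.43, gap 270992 bp), chromosome 3 at 42894618 to 42895436 (3.93, 175142 bp) and chromosome 5 at 61212916 to 61213519 (3.63, 127700 bp), and none was listed in pacSC or rST.

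Presence in the later stages, which played no part in choosing or sorting these peaks, followed the kinds. Of the joined SG-A peaks 52.5% (51.3 to 53.7) overlapped a pacSC peak. The share was 35.7% (35.0 to 36.3) for 1 to 1 peaks, 17.1% (15.8 to 18.5) for split pieces and 4.07% (3.90 to 4.24) for newly listed peaks. For PriSG-A peaks not listed again it was 4.54% (4.22 to 4.88). In rST the shares were 12.6% for joined, 10.5% for 1 to 1, 3.72% for split pieces, 0.257% for newly listed and 0.572% for not listed again peaks. Newly listed peaks at the extremes of distance were in pacSC more often, with 6.13% (5.02 to 7.46) within 100 bp of a PriSG-A peak and 7.14% (6.01 to 8.47) over 100 kb away, against 3.19% (2.92 to 3.47) at gaps over 1000 and up to 10000 bp. With a −log10 q of 5 or more in each list 52.2% of peaks without a partner were in pacSC, but that group held 10546 SG-A peaks, of which only 513 had no PriSG-A peak in the full list. With the reciprocal overlap the share was 8.26%.

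Strength and width also separate these kinds, so the shares were compared within classes of both. In classes of peaks under 200 bp or of 400 to 800 bp, split by −log10 q, the peaks found in both spermatogonial lists were in pacSC more often than those in 1 list in 21 of 21 classes. The interval of the difference lay above 0 in 19 of them. These were 10 classes of PriSG-A peaks and 11 of SG-A peaks. Shared peaks of both lists are overlapping regions set against the same pacSC list, so the classes are not independent of each other. Peaks of other widths are not part of these classes. For PriSG-A peaks under 200 bp with a −log10 q of 2 to 2.5, the share in pacSC was 11.7% of 7578 shared peaks and 4.37% of 6480 peaks not listed again, a difference of 7.32 percentage points (6.45 to 8.20, Newcombe interval). For SG-A peaks of the same class it was 8.48% of 2700 shared and 3.10% of 17911 newly listed peaks. For PriSG-A peaks of 400 to 800 bp with a −log10 q of 3 to 3.5 it was 33.3% of 2008 and 9.68% of 124. For SG-A peaks of 400 to 800 bp with a −log10 q of 4 to 5 it was 18.0% and 6.85%. The classes were chosen after the data were seen, and within a class the shared peaks were in most cases slightly wider.

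**Figure D4:**
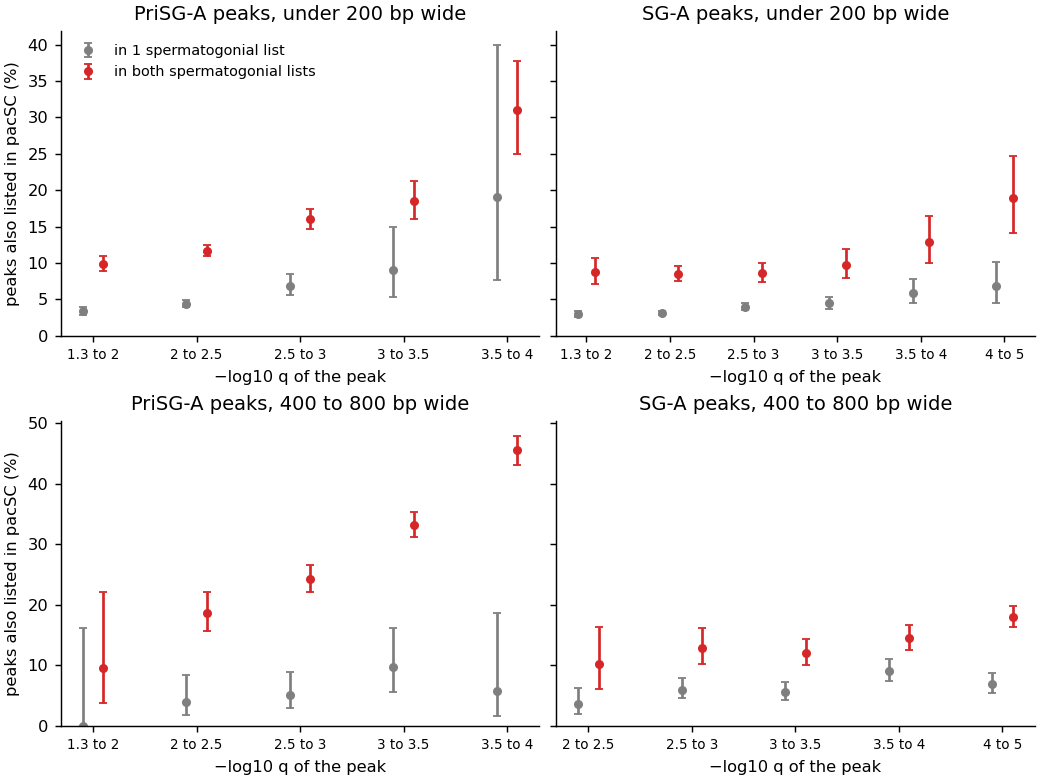
Share of peaks that overlap a pacSC peak (%), in classes of −log10 q, for PriSG-A (left) and SG-A peaks (right) under 200 bp (top) and of 400 to 800 bp (bottom); red points are peaks in both spermatogonial lists, grey points peaks in 1 of them, and bars are 95% Wilson intervals. The red point is above the grey one in 21 of 21 classes, for example 11.7% against 4.37% for narrow PriSG-A peaks with a −log10 q of 2 to 2.5. The red points on the left and right come from overlapping regions and are not independent.

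The ratio of signal per bp was higher in 1 to 1 regions that were also in pacSC. The size of this difference depended on the classes used. The median ratio was 2.25 (2.23 to 2.27) for the 8115 regions in pacSC and 1.72 (1.69 to 1.74) for the 14637 others. Within the 5 classes of summed −log10 q the paired medians, in pacSC and not, were 1.14 and 1.17 in the weakest, 1.61 in both groups of the second, 2.24 and 2.09 in the third, 2.59 and 2.42 in the fourth, and 2.22 and 2.17 in the strongest. The gap within classes was thus smaller than the gap over all regions. The median width ratio was 1.34 in both groups, and the median summit shift was 47 and 51 bp.

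The ratio and the shares varied by chromosome. The median ratio of signal per bp was highest on chromosome 11, at 2.37 (2.29 to 2.48), followed by chromosomes 9 (2.17), 19 (2.13) and 15 (2.12). It was lowest on chromosome 13, at 1.79 (1.71 to 1.87), and was 1.83 on chromosomes 1, 3 and 14. The interval of chromosome 11 did not overlap that of any other chromosome, while most neighbours in this order overlapped. These intervals cover counting error only and treat neighbouring regions as independent, so they do not test a difference between chromosomes. The share of PriSG-A peaks not listed again was lowest on chromosomes 19 (16.1%, 14.3 to 18.2) and 11 (16.5%, 15.2 to 18.0) and highest on chromosomes 3 (34.8%) and 6 (34.2%). Joined peaks were also most frequent on chromosomes 11 and 19, at 28.4% and 27.9% of shared SG-A peaks, and least frequent on chromosome 1, at 16.6%. Over the 19 chromosomes the ratio and the share not listed again had a Pearson r of −0.77 and a Spearman rho of −0.74. The ratio and the number of SG-A peaks per Mb had an r of 0.56 and a rho of 0.61. These describe 19 points that share the same 2 lists.

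**Figure D5:**
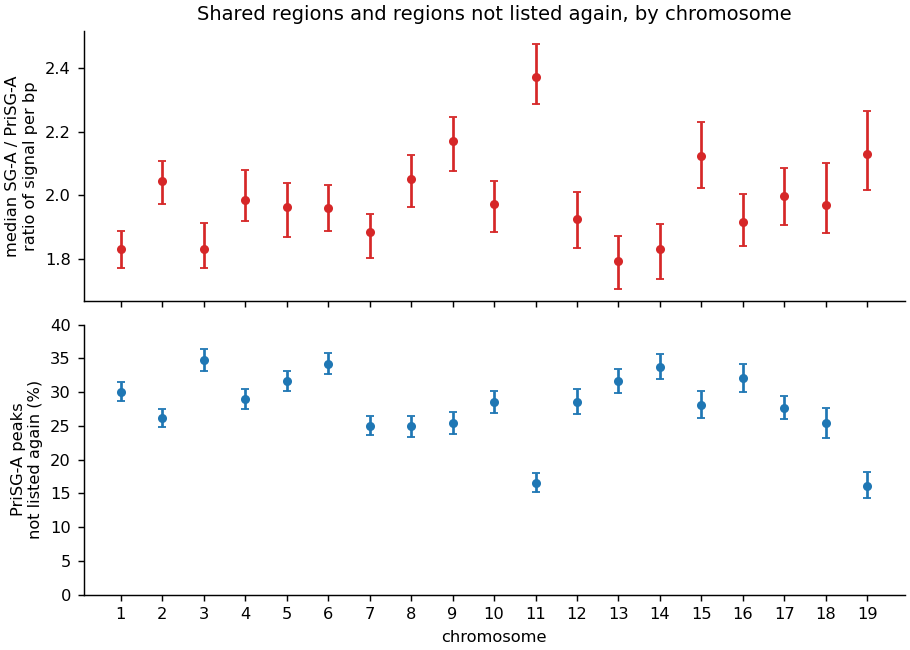
Median ratio of signal per bp (SG-A over PriSG-A) in 1 to 1 regions with its 95% order-statistic interval (top) and share of PriSG-A peaks not listed again with its 95% Wilson interval (bottom), for chromosomes 1 to 19. Chromosome 11 had the highest ratio (2.37), and chromosomes 11 and 19 had the lowest shares not listed again (16.5% and 16.1%).

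The same pattern held at a scale of 1 Mb. Of 1189 windows of 1 Mb with at least 20 PriSG-A peaks, the median window had 21.7% of them not listed again, with 5th and 95th percentiles of 3.25% and 72.7%, and 106 windows were over 60%. In 999 windows with at least 8 regions of the 1 to 1 kind, the window's median ratio had a median of 2.08 and 5th and 95th percentiles of 1.18 and 3.05, and 26 windows (2.60%) were below 1. Across these windows the log2 ratio and the share not listed again had an r of −0.66 and a rho of −0.65, again as a description of points from the same 2 lists. Windows that kept more of their PriSG-A peaks thus tended to have higher ratios.

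Single windows show both ends. On chromosome 5, from 95000001 to 96000000, 111 of 133 PriSG-A peaks (83.5%, 76.2 to 88.8) were not listed again, and the 18 regions of the 1 to 1 kind had a median ratio of 0.797. The window before it had 53 of 70 not listed again and a ratio of 0.972. On chromosome 17, from 13000001 to 14000000, 118 of 192 were not listed again while 81 of 151 SG-A peaks were new, and the ratio was 1.31. The lowest ratio of the 999 windows was 0.547, on chromosome 5 from 10000001 to 11000000 with 9 regions. At the other end the highest was 5.29, on chromosome 5 from 134000001 to 135000000, also with 9 regions. On chromosome 11 from 68000001 to 69000000 it was 4.07 with 15 regions, and on chromosome 8 from 126000001 to 127000000 it was 4.07 with 35 regions, where 2 of 47 PriSG-A peaks were not listed again. New peaks were most numerous on chromosome 10 from 80000001 to 81000000, where 183 of 256 SG-A peaks were new, 6 of 117 PriSG-A peaks were not listed again and the ratio was 2.65.

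Neighbouring regions had like ratios. Among the 3501 strong regions, the log2 ratios of pairs less than 10 kb apart had an r of 0.40 (108 pairs), and those of pairs 10 to 100 kb apart had an r of 0.47 (1215 pairs). The r was 0.29 from 100 kb to 1 Mb (7267 pairs), 0.07 from 1 to 10 Mb and 0.01 from 10 to 50 Mb. Over all 1 to 1 regions the values were lower, at 0.20, 0.18, 0.13, 0.05 and 0.01 for the same distances. Pairs share regions and both lists, so these values carry no p. They also mean that neighbouring regions are not independent, and that the counting intervals above are narrower than the spread of regions along the chromosomes would give.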

How the data were processed

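ATAC-seq was measured in 3 PriSG-A, 3 SG-A, 2 pacSC and 2 rST libraries, and the authors deposited 1 peak list per stage. The PriSG-A list has a garbled name and was assigned from the labels of its samples, all of which name it. For each peak the authors deposited a score and a signal value, with a −log10 q and the offset of the summit in bp. In the authors' lists the score was 1000 times the signal value per bp of width, with a cap at 1000, in 100% of peaks within a tolerance of 1. The lowest deposited signal value was 20.0. The submitters' processing notes list Bowtie2 2.2.5, Bowtie, SAMtools and mm10 and give them no roles. Not given in the sources used here are the peak caller, its settings, the combining of replicates and any Tn5 shift, and read depth is unknown.

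The positions were set against RefSeq genes on GRCm38, the assembly that mm10 denotes. Peaks ran past the last gene on 10 of 19 autosomes, by up to 7.17 Mb on chromosome 7. Strong SG-A summits lay within 1000 bp of a GRCm38 promoter window in a median of 4.47% of cases over 18 chromosomes, with a highest value of 58.7% on chromosome 16. The positions as a whole therefore do not follow GRCm38. They are given 1-based on the assembly of the lists, so the printed starts differ by 1 bp from the deposited starts. No gene is named and no sequence is printed.

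Peaks were matched in Python 3.11.15 with numpy 2.4.6, pandas 2.3.3, scipy 1.17.1 and statsmodels 0.14.6, and plots were drawn with matplotlib 3.10.9. The matching was tested on simulated lists. Shares have Wilson intervals, differences of shares Newcombe intervals and medians binomial order-statistic intervals, all at 95% and for counting error only. The members, classes and alternatives were chosen with earlier results of these data known. Named regions are the 3 to 5 extremes of each measure among 1 to 1 regions at a −log10 q of 5 or more in each list. For the other kinds they are the 3 joins and splits with most pieces and the 3 unshared peaks of highest signal value in each class of distance. One such peak is not reported here. The alternatives tried were a −log10 q of 5 or more, a reciprocal overlap of 50%, lists of equal length, no peaks over 5000 bp, all overlapping pairs, undivided signal values, near-equal widths and summit distances. Lists of equal length kept the SG-A peaks of highest −log10 q, so that cut was by strength. Hi-C and ChIP-seq samples were not analysed here.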

Additional observations from a re-analysis of the deposited data

How the results depend on the processing

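Of 62 alternative values for the main results, 15 stayed within the main interval and 47 moved. A reversal was defined only for the median ratios of signal per bp and of width, and neither reversed. Some shares crossed 50%. Newly listed SG-A peaks were 47.8% with lists of equal length, and PriSG-A peaks listed again were 31.7% with the reciprocal overlap. Under that overlap the median gap was 0 bp for peaks not listed again and 2575 bp for newly listed peaks. In the main setting these were 9226 and 7021.5 bp. Orders between values also turned in other cases. Division by the median ratio put the share at least 2 times lower (17.3%) above the share at least 2 times higher (11.2%), and lists of equal length put new peaks within 1000 bp (26.7%) above peaks not listed again (24.6%). The cause was not tested, beyond fewer peaks in the filtered lists. Leaving out peaks over 5000 bp kept every main value within its interval.

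With a −log10 q of 5 or more in each list (5113 and 15598 peaks), 99.2% of PriSG-A peaks were listed again, 67.6% of SG-A peaks (10546) had no partner, of which only 513 had none in the full PriSG-A list, 48.0% of 1 to 1 regions were at least 2 times higher, the median summit shift was 31 bp and the width ratio 1.29. The joined share was 0.713% and the split share 0.394%, 1.24% of these 10546 and 4.88% of 41 not listed again peaks lay within 1000 bp, and 90.1% of 1 to 1 peaks and 52.2% of the 10546 were in pacSC. With a reciprocal overlap of 50% these were 31.7%, 79.9%, 51.7%, 44 bp and 1.25, then 43.2%, 72.3%, 50.1% and 8.26%, with a median ratio of signal per bp of 2.04. No peak can be joined or split under that rule. With lists of equal length (54413 peaks each) they were 65.7%, 47.8%, 54.9%, 52 bp and 1.39, with a joined share of 23.3%, a split share of 2.58%, 24.6% of not listed again peaks within 1000 bp, 39.5% of 1 to 1 and 5.00% of new peaks in pacSC, and a median ratio of 2.13. The SG-A peaks left out were those of lowest −log10 q, so this is not a neutral change of length. The share at least 2 times lower was then 1.54%, against 4.36% with the full lists.

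With all overlapping pairs the median ratio was 2.18, 55.5% were at least 2 times higher, the summit shift was 92 bp and the width ratio 1.72. Undivided signal values gave a ratio of 2.82 and 64.8%. Regions with widths within 1.5 times of each other had a shift of 43 bp. Between summits, 22.1% of new and 30.5% of not listed again peaks were within 1000 bp. Of the alternatives chosen after the data were seen, division by the median ratio gave 1 by construction and 11.2%, the ratio of −log10 q gave 1.55 and 19.6%, and leaving out 17 windows of 1 Mb with over 100 PriSG-A peaks gave 62.6% new and 32.3% of not listed again peaks within 1000 bp.

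No paired analysis was possible because the replicates of a stage are held in 1 list. This also kept single replicates from being left out. Unknown depth limits every ratio and every share that compares the lists.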
